A study of Mus musculus with 4 samples.

Results

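The Ly6 surface proteins are small, cysteine-rich proteins tied to the outer face of the cell membrane by a glycosylphosphatidylinositol (GPI) anchor. The 5 genes considered were Ly6a, Ly6c1, Ly6c2, Ly6e and Ly6i, found by symbol through the array's probe annotation. They were chosen with earlier results of these data known. Of these, 4 had a feature on the array, among 22180 genes with a feature in all, and each had exactly 1; Ly6a had no annotated feature in the table used and is not analysed here. The 3 genes Ly6e, Ly6c2 and Ly6i passed the filter on dim features and were tested among 12542 genes, whereas Ly6c1 lay below it and is described without a test.

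RNA came from mouse bone marrow derived macrophages that were grown for 6 days with L-cell supernatant and then stimulated with 100 ng/ml lipopolysaccharide (LPS) for 2 hours. The control genotype was PP2ACαfl/fl, with floxed alleles of Ppp2ca, the gene of a catalytic subunit of protein phosphatase 2A, and the knockout genotype was PP2ACαfl/fl;lyM-Cre, in which a myeloid Cre removes exon 1. Both genotypes carried the floxed alleles and both received LPS, and neither unstimulated cells nor a control with Cre alone were analysed here. There were 2 arrays for each genotype, which the labels call biological replicates; age, strain and whether they came from separate mice were not given in the sources used here, so the p-values measure only the spread between these arrays.

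Ly6 genes are widely used as surface markers of blood cells and many of them are known to respond to interferons. Antibodies to Ly6C, the product of Ly6c1 and Ly6c2, mark classical monocytes, which lose it as they become macrophages. Ly6e encodes a broadly expressed member known as an interferon-induced modifier of virus entry, and Ly6a encodes the stem cell antigen Sca-1. Ly6i is a less studied neighbour of Ly6a.

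The members lie in a cluster of duplicated genes, and the sequences before their starts show how close some copies are. In RefSeq's annotation of GRCm38.p6 the protein-coding genes Ly6e, Ly6i, Ly6a, Ly6c1, Ly6c2 and Ly6a2 follow one another in this order on chromosome 15. RefSeq promoter windows of 300 bases were at hand for Ly6c1 and Ly6c2, with 2 windows each, and for their neighbour Ly6a2; those of Ly6a, Ly6e and Ly6i are not analysed here. Of these 3 genes, Ly6c2 rose in the arrays, Ly6a2 did not pass the test and Ly6c1 was too dim for one. The 250 bases before the annotated start are shown for each. They are written 5′ to 3′ from GRCm38.p6, with matches to any searched motif in capitals.
Ly6c2 (chr15:75111972-75112221, minus strand): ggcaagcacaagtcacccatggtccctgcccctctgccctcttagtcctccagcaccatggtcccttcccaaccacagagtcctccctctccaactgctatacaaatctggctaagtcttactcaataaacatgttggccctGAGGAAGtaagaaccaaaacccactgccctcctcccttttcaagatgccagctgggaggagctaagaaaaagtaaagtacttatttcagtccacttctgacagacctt
Ly6a2 (chr15:75135129-75135378, minus strand): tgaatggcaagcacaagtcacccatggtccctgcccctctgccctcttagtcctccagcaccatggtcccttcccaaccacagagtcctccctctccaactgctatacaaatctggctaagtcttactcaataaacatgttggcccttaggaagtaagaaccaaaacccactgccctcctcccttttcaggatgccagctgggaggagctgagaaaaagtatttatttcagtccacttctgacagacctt
Ly6c1 (chr15:75048838-75049087, minus strand): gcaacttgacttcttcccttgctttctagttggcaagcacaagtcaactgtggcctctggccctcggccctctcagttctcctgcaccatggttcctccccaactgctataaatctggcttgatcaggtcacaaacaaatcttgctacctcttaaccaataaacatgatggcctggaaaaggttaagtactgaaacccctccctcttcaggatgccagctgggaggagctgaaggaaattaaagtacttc

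Aligned over their windows, Ly6c2 and Ly6a2 shared 291 of 295 aligned bases (98.6%), while Ly6c2 and Ly6c1 shared 214 of 260 (82.3%). Gaps are left out of these counts, and the alignment of Ly6c2 with Ly6a2 also held gaps of 3 and 2 bases. The windows were searched on both strands for the core of the interferon-stimulated response element (GAAA, 2 bases of any kind, GAAA), for TTCNNNGAA, the gamma-activated site, and for GAGGAAG, a core read by ETS factors such as PU.1. No window of Ly6c1 or Ly6c2 held the first or the second, which says only that these letters are not in these windows. Of all 32851 windows, 3.44% held the first and 8.3% the second. Counted by gene, 17 of the 29 genes of the interferon-stimulated list with a window (58.6%) held the first, against 3.99% of all 27025 genes. That list was written with earlier results of these data known. GAGGAAG, held by 13.6% of all windows, occurred at 2 places in the Ly6c2 window shown, once before the start (in capitals) and once after it, and in the second window of Ly6c1 but not the one shown. Of the 4 substitutions between Ly6c2 and Ly6a2, G143T and A278C fell in these matches, and A185G and A206G did not. Ly6c2's base comes first and positions count from the 5′ end of its window. G143T and A278C changed letters at the front of GAGGAAG and left its GGAA in place, so Ly6a2 lacks only this exact string there. The Ly6a2 window had no match to any of the 3 motifs. Whether Ly6c2 and Ly6a2 differed in their change was not tested, nor was any part of these motifs in the values. Windows of Ly6f and Ly6g, which lay below the filter on the arrays, also held GAGGAAG at 2 places, and 12 of 25 LY6/uPAR family genes with a window (48%, Ly6a2 counted among them) held it against 15.4% of all genes.

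The arrays first gave the targeted gene. In knockout Ppp2ca differed by -4.04 log2 units from control (limma adjusted p = 0.0076), and Lyz2, the lysozyme gene that the common myeloid Cre line interrupts, by -5.19. Array medians, over 41345 features, ran from 3.50 to 3.57 log2 units. The macrophage genes Csf1r, Cd68 and Adgre1, which define the labelled cell type, had control means of 11.64, 11.87 and 11.23 log2 units and did not pass the test. A gene is said to rise or fall when its limma p-value, adjusted over all tested genes by the Benjamini-Hochberg method, was under 0.05; 852 genes (6.79%) did so, 3.3% upward and 3.49% downward. Of the 11 tested genes of the macrophage list, Fcgr1, which encodes the high-affinity receptor for antibody, rose by 0.94 log2 units (limma adjusted p = 0.016), and Marco, a scavenger receptor gene, fell by 0.86 (limma adjusted p = 0.018), as did Lyz2; the other 8 did not pass. The median difference of this list was -0.01 log2 units, and its mean over 12 genes, Lyz2 included, was 9.67 to 9.77 on the control arrays and 9.28 to 9.32 on the knockout arrays. Lyz2, at -5.19, had by far the largest difference of the 12 and so weighs most in the change of that mean. The mean without Lyz2 was not computed.

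Of the 3 tested members, Ly6e and Ly6c2 rose in knockout macrophages, Ly6i did not pass the test, and none fell. The share of all tested genes that rose was 3.3%. In all 3 tested members both knockout arrays lay above both control arrays, a pattern held by 28.8% of tested genes; 55.3% had groups that did not overlap in one direction or the other. The median difference of the 3 was 0.76 log2 units, against 0.01 over all tested genes. Because the members were chosen with earlier results of these data known, these comparisons are not a test of the family.

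Ly6e, the interferon-induced member, read 10.71 and 10.60 log2 units on the control arrays and 11.53 and 11.40 on the knockout arrays. The groups were clearly apart: the lower knockout array stood 0.69 above the higher control array, while arrays of 1 genotype differed by 0.11 in control and 0.13 in knockout. The control mean was 10.65 ± 0.08 and the knockout mean 11.46 ± 0.09 (SD, n = 2 each), so Ly6e rose by 0.81 log2 units or 1.76-fold (SE 0.10, 95% interval 0.57 to 1.06, limma adjusted p = 0.015). Of all tested genes 1.21% had a larger positive difference.

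Ly6c2, a gene of the monocyte antigen Ly6C, read 4.88 and 4.81 log2 units in control and 5.74 and 5.49 in knockout. Both knockout arrays were higher than both control arrays, by at least 0.60, although the knockout arrays differed from each other by 0.25. The control mean was 4.85 ± 0.05 and the knockout mean 5.61 ± 0.18 (SD, n = 2 each), so Ly6c2 rose by 0.76 log2 units or 1.70-fold (SE 0.11, 95% interval 0.48 to 1.05, limma adjusted p = 0.026). Of all tested genes 1.41% had a larger positive difference. The feature was above the filter level of 3.53 on every array. In bulk RNA, more cells that express a gene and more RNA per cell cannot be told apart.

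Ly6i was close to the filter level in both groups. It read 3.68 and 3.61 log2 units in control and 3.99 and 4.09 in knockout, so the knockout arrays lay above the control arrays by at least 0.31. The difference of 0.39 log2 units (SE 0.09, 95% interval 0.16 to 0.62) had a limma adjusted p of 0.068 and did not pass. Its interval overlaps those of Ly6e and Ly6c2, and whether the members differed from one another in their change was not tested.

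Ly6c1, the near copy of Ly6c2, was below the filter on every array. It read 2.59 and 2.29 log2 units in control and 2.20 and 2.13 in knockout, a difference of -0.27 between the means. The groups did not overlap, but the control arrays alone differed by 0.30. At this brightness the values carry little information on whether the gene is expressed, and probes of near copies may also read each other's transcripts. The deposited values do not tell transcripts of Ly6c1, Ly6c2 and Ly6a2 apart where probes are shared, and the probes' positions were not analysed here.

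**Figure D1:**
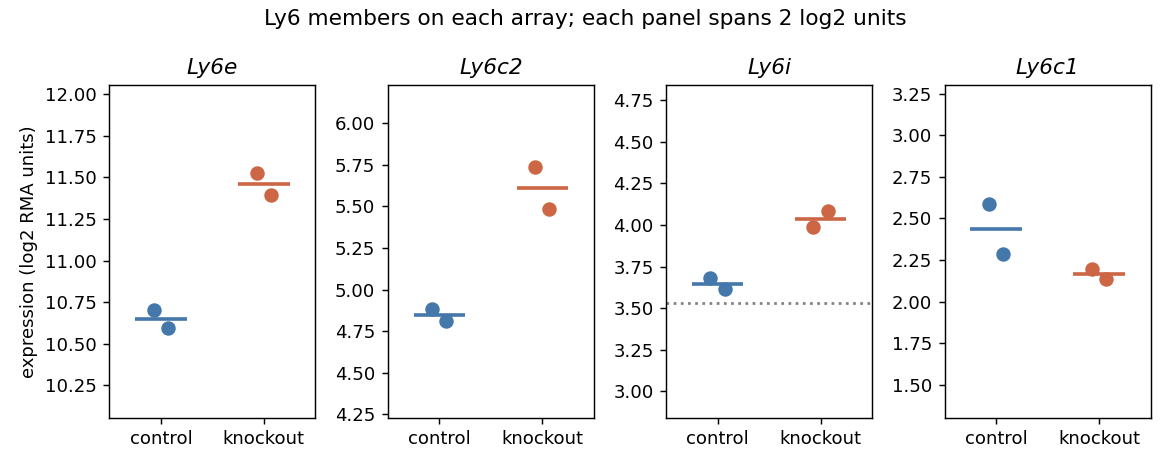
Expression in log2 RMA units of the 4 measured members on each array, with points for the arrays, bars for the mean of each genotype (n = 2) and a dotted line at the filter level of 3.53 where it falls in the panel. Ly6e, Ly6c2 and Ly6i have both knockout arrays above both control arrays, whereas Ly6c1 has them below, at 2.20 and 2.13.

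The calls of Ly6e and Ly6c2 rest on all 4 arrays. With any single array left out, the Ly6e difference was between 0.75 and 0.88 log2 units with limma adjusted p-values of 0.063 to 0.099, and that of Ly6c2 between 0.64 and 0.89 with adjusted p-values of 0.074 to 0.12. With dim genes kept in the test, Ly6c2 also missed the threshold (limma adjusted p = 0.056), and with all features above the filter as units both did (0.096 for Ly6e and 0.12 for Ly6c2).

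Elsewhere in the wider LY6/uPAR family, whose members share the cysteine-rich fold, no tested gene passed. Of 43 other family genes listed, 38 had a feature and 15 were tested; none rose or fell by limma, 2 had an unadjusted p under 0.05, and 6.79% of all tested genes were called. Their median difference was -0.09 log2 units. The 23 remaining genes, among them the neutrophil marker Ly6g at a control mean of 3.11 log2 units, were below the filter. Plaur, the urokinase receptor, had the most negative difference among the tested ones. It read 10.20 and 10.14 log2 units in control and 9.87 on both knockout arrays, and differed by -0.30 (SE 0.09, limma adjusted p = 0.10). The groups did not overlap, but Plaur did not pass; it did with a stricter filter (limma adjusted p = 0.047) and with an intensity trend in the variance (0.020). Cd59a, which encodes an inhibitor of the complement pore, differed by -0.16 (limma adjusted p = 0.40).

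**Figure D2:**
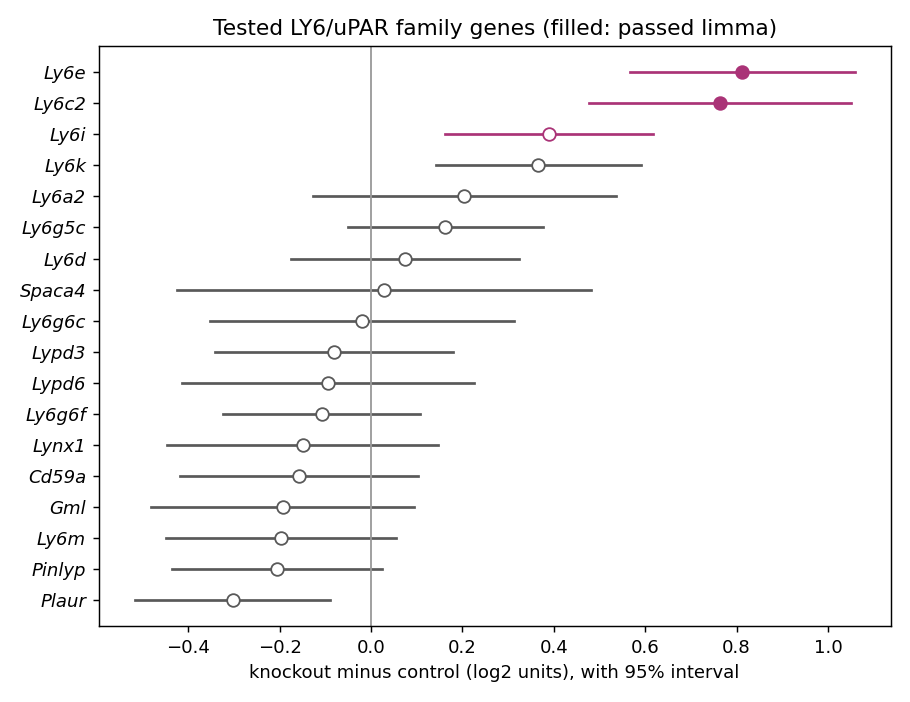
Difference between knockout and control in log2 units for the 18 tested LY6/uPAR family genes, with 95% limma intervals; members are in purple and filled points passed the test. Ly6e and Ly6c2 are the filled points, at 0.81 and 0.76.

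Along chromosome 15, the genes beside Ly6e and Ly6c2 did not pass the test or were too dim for it. Ly6a2, which RefSeq places next to Ly6c2 and whose promoter window is nearly the same, read 5.64 and 5.81 log2 units in control and 5.78 and 6.08 in knockout. Its groups overlapped, and the difference of 0.20 (SE 0.13, 95% interval -0.13 to 0.54, limma adjusted p = 0.40) did not pass. That interval overlaps the one of Ly6c2, whether the genes differed in their change was not tested, and their probes may read each other's transcripts. Ly6k, a little-studied family gene before Ly6e in that order, differed by 0.37 (SE 0.09, limma adjusted p = 0.076), from 4.34 and 4.26 to 4.71 and 4.63 without overlap. A dimmer feature of Ly6k read 3.07 and 3.20 in control and 2.91 and 3.36 in knockout, with overlapping groups. Of 35 protein-coding genes in the stretch that runs from the 3 genes before Psca to the 3 after Gpihbp1, 28 had a feature and 14 were tested. The 2 that rose were Ly6e and Ly6c2, and no other tested gene in the stretch was called. Over all tested genes 3.3% rose. The stretch was laid around the members, so these 2 are no separate result. Top1mt, a mitochondrial topoisomerase gene beyond the Ly6 cluster, differed by -0.49 (SE 0.11, limma adjusted p = 0.066).

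**Figure D3:**
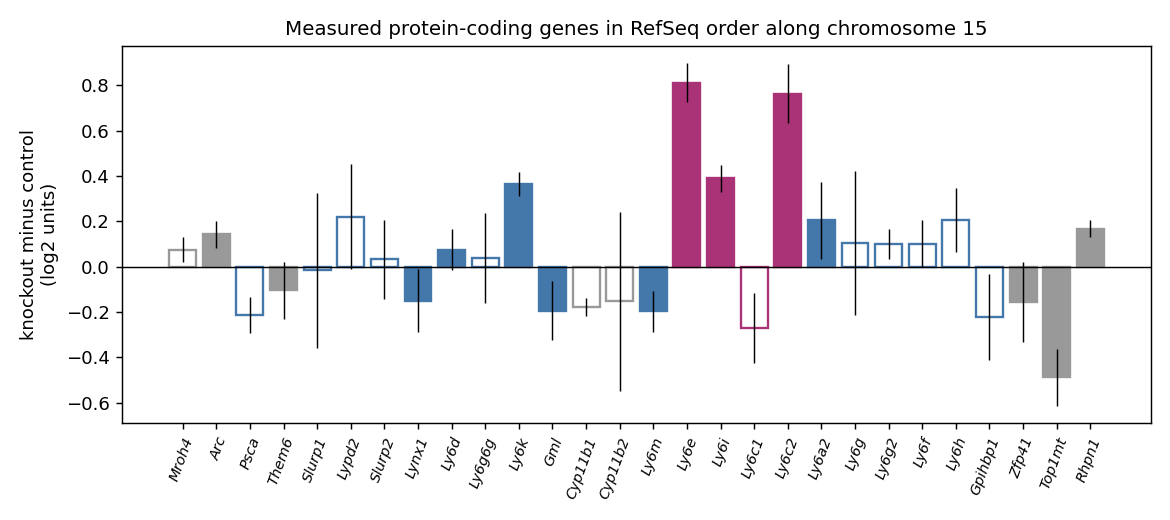
Difference between knockout and control in log2 units for the 28 measured protein-coding genes in RefSeq order along chromosome 15; purple bars are members, blue bars other Ly6-type genes and grey bars other genes, open bars were too dim to be tested, and lines span the pooled SD (n = 2 each) either side. The tallest bars are Ly6e and Ly6c2, at 0.81 and 0.76, and Ly6c1 between them is open and negative at -0.27.

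The genes whose profile over the 4 arrays was nearest to each member were found by Euclidean distance between log2 values centred on each gene's own mean. Nearest to Ly6e were Psmb9, a subunit of the immunoproteasome, at a distance of 0.07 log2 units, the receptor tyrosine kinase gene Axl (0.07) and Stat2, a transcription factor of interferon signalling (0.08). They rose by 0.75, 0.81 and 0.86 log2 units. Nearest to Ly6c2 were Gapt, a membrane adaptor gene (0.04), Trim21, a ubiquitin ligase that binds antibodies (0.06), and the pseudogene Mfsd4b3-ps (0.09), which rose by 0.75, 0.77 and 0.69. Nearest to Ly6i were Cep290, Foxk1 and Ccnt1, with distances of 0.02 to 0.03 and differences of 0.38 to 0.41, none of which passed. The distance between Ly6e and Ly6c2 was 0.10, and those of Ly6i to either were 0.45. Genes chosen in this way have differences close to that of the member, so their rises are no separate result. With 4 arrays such nearness is a description of these arrays.

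Interferon-stimulated genes moved in the same direction as Ly6e and Ly6c2. Of 36 tested genes of a list without Ly6 members, 32 rose and none fell, against 3.3% and 3.49% of all tested genes, with a median difference of 1.13 log2 units; Oasl1, Irf7, Iigp1 and Zbp1 led at 2.82, 2.19, 2.02 and 1.93. The differences of Ly6e and Ly6c2 lay below that median. The list was written with earlier results of these data known. Without any 1 array the number that rose was between 9 and 23: it was 9 without knockout replicate 1, 11 without knockout replicate 2 and 16 without control replicate 2. The ligand gene Ifnb1 rose by 1.26 (SE 0.14, limma adjusted p = 0.012). Of 19 tested genes of interferon ligands, receptors and signalling, 5 rose and Socs3 fell, by 0.61. Of those 5, the 4 genes Stat2, Irf7, Irf9 and Usp18 are also on the interferon-stimulated list, and the other is Ifnb1; the receptor genes Ifnar1 and Ifnar2 differed by -0.04 and 0.23 and did not pass. The part of interferon in the Ly6 values was not tested.

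Of 28 tested genes that build, attach, process or cleave the GPI anchor, 3 changed, all upward. Over all tested genes 3.3% rose and 6.79% changed in either direction. Pigv, which encodes a mannosyltransferase of anchor assembly, read 6.21 and 6.16 log2 units in control and 7.07 and 7.17 in knockout, and rose by 0.93 (SE 0.09, limma adjusted p = 0.0091). Pgap6, a gene of a GPI-processing phospholipase, rose by 0.71 (limma adjusted p = 0.016) and Pigyl by 0.55 (limma adjusted p = 0.031). None fell, and the median of the list was 0.03 log2 units, near the 0.01 of all tested genes. The other 25, among them Piga and the transamidase genes Pigk and Pigt, did not pass.

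Genes of other GPI-anchored surface proteins changed in both directions. Of 16 tested, which include Plaur and Cd59a, 1 rose and 2 fell against 3.3% and 3.49% of all tested genes, with a median of -0.11 log2 units. The 16 also include Ceacam1, whose product is a transmembrane protein without a GPI anchor, and which did not pass. The gene that rose was Bst2, which encodes the interferon-induced protein tetherin and is also on the interferon-stimulated list, by 0.89 (SE 0.12, limma adjusted p = 0.021). Cd24a, a surface sialoglycoprotein gene, read 8.49 and 7.79 log2 units in control and 6.11 and 6.54 in knockout and fell by 1.82 (SE 0.26, limma adjusted p = 0.023). Gfra2, the gene of a neurotrophic factor receptor, fell by 1.54 from a control mean of 5.46 (limma adjusted p = 0.0070). The LPS co-receptor gene Cd14 differed by 0.02 and did not pass.

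**Figure D4:**
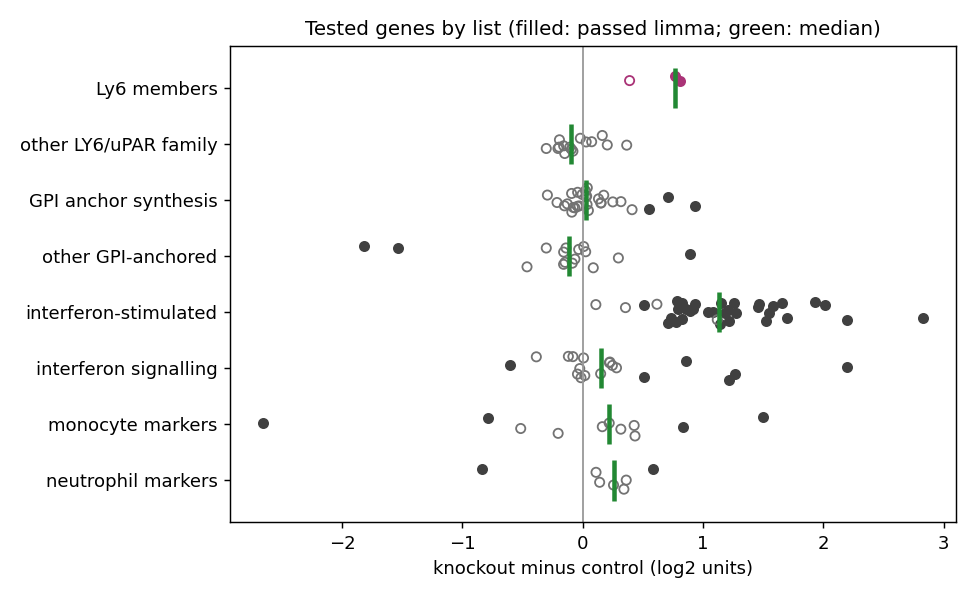
Difference between knockout and control in log2 units for each tested gene of 8 lists, with filled points for genes that passed limma and a green bar at each list's median. The interferon-stimulated list has its median at 1.13, the 3 tested members at 0.76 and the other LY6/uPAR family genes at -0.09.

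Markers of other cell types that carry Ly6 antigens were read beside these values; over all tested genes 3.3% rose and 3.49% fell. Of 11 tested monocyte markers, Ms4a4c and Ccr2 rose, by 1.50 and 0.83, and Fn1 and F13a1 fell, by 2.66 and 0.79, with a median of 0.22 log2 units; the mean of the list was 6.31 to 6.37 on the control arrays and 6.27 to 6.36 on the knockout arrays. Of 12 neutrophil markers 7 were tested, and Lcn2 rose by 0.58 and Mmp8 fell by 0.84. Of these 7, 6 had a positive difference, the median was 0.26 log2 units, and 3 had an unadjusted limma p under 0.05. S100a8, Camp, Elane, Ly6g and Retnlg were below the filter. The mean of the list was 4.25 to 4.29 in control and 4.37 to 4.39 in knockout. Among progenitor markers Kit and Cd34 were below the filter and none of the 4 tested passed limma (2 at an unadjusted p under 0.05). Among T and NK cell markers 6 of 8 were below it, including Cd3d, Cd3e and Cd3g, and 5 of 6 B cell markers were. Of the 4 tested genes each of the dendritic cell and endothelial lists, Itgax fell by 2.54 and Vwf by 0.88, and none of the 3 tested stromal genes passed limma (0 at an unadjusted p under 0.05). Whether a different share of monocyte-like or neutrophil-like cells bears on Ly6c2 was not tested.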

How the data were processed

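Each of the 4 samples was measured on a one-colour Affymetrix whole-transcript array, with biotinylated cDNA from 400 ng of total RNA, per the labels' protocols. The authors made the deposited log2 values with the RMA algorithm, which adjusts background, normalizes between arrays and takes logs, per the series' design text; the submitters' processing notes also name oligo, and versions and a genome build are not given in the sources used here. Such values cannot show a change in total RNA per cell. The number of arrays limits the precision.

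Gene names come from the platform annotation: 23521 features had 1 symbol, 1814 several and 16010 none, and 0 columns were unmatched to a sample. For each gene the feature with the highest mean was used, and genes whose mean reached the median over all features (3.53 log2 units) were tested by limma 3.58.1 under R 4.3.3 (moderated test of a linear fit, two-sided, no block, Benjamini-Hochberg adjustment, threshold 0.05, 2 residual degrees of freedom). The script was tested on simulated data. Promoter sequences are RefSeq's for GRCm38.p6. The members and the gene lists were chosen with earlier results of these data known. Named genes were the members, Ppp2ca, Lyz2 and Ifnb1, family genes that passed, up to 4 genes that passed per list and the 3 nearest profiles of each tested member; others were named after their values were seen. Alternatives covered the filter, normalization, features, arrays left out, the replicate block, the variance model and array weights.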

Additional observations from a re-analysis of the deposited data

How the results depend on the processing

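Of 14 alternatives, 6 (both normalizations and the 4 arrays left out in turn) could move the members' differences, and under these Ly6e, Ly6c2 and Ly6i kept their sign, with ranges of 0.75 to 0.88, 0.64 to 0.89 and 0.34 to 0.44 log2 units. Ly6i passed in none of the 13 alternatives that tested it (limma adjusted p 0.068 to 0.32); the stricter filter left it out. Ly6c1 ranged from -0.42 to -0.12 and, tested with no filter, had a limma adjusted p of 0.41. Ly6c2, at 0.76, missed the threshold with no filter and with all features as units, and Ly6e, at 0.81, with all features as units. Each array left out ended both calls, with differences of 0.64 to 0.89 for Ly6c2 and 0.75 to 0.88 for Ly6e, so 0 members were called then; 1 was called with no filter and 0 with all features as units.

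The number of called genes, 852, was 333 with no filter, 1475 with the stricter filter of 5 log2 units, 15 with all features as units, 1584 with an intensity trend and 96 to 174 with an array left out. Of the interferon-stimulated genes, 32 rose, 1 with all features as units and 9 to 23 with an array left out. Among the other LY6/uPAR family genes, where 0 were called, 1 was called with the stricter filter and 1 with an intensity trend, in both cases Plaur, at -0.30 (limma adjusted p 0.047 and 0.020). The filter and the units change how many tests are adjusted for, and also the variance model, which is fitted anew to each set. Why the counts moved was not tested.

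Replicate numbers are shared between the genotypes, and same-numbered arrays did not deviate together (r = -0.04 across genes). The labels give only the number, and this correlation cannot tell whether same-numbered arrays were prepared together. With the replicate number as a block 312 genes were called, and Ly6e and Ly6c2 still passed, with limma adjusted p-values of 0.038 and 0.049.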
